A study of Drosophila melanogaster with 4 samples.

Results

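The odorant-binding protein (OBP) genes of Drosophila melanogaster were followed over 4 genome-wide expression arrays of adult males. Members were probe sets annotated with a single gene symbol that begins with Obp and a number, and where a gene had several, the one brightest on average over the 4 arrays stood for it. The rule found 47 genes on 50 probe sets, among 11982 genes in all. RefSeq's Release 6 annotation lists 51 genes with such a symbol. Of the other 4, Obp50b, Obp50c and Obp57d share probe sets that carry several symbols, and Obp83a was not analysed here.

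The flies were wild-type Canton-S males, young adults of 1 to 2 days, kept on standard food in mesh-closed vials. There was 1 array per group: unexposed flies, and flies kept for 24 h in the vapour of benzene, toluene or formaldehyde. Toluene is benzene with a methyl group added, and formaldehyde is a small, reactive aldehyde. Neither the vapour doses nor the number of flies behind an RNA preparation is stated in the sources used. No dissection is described, so the RNA is taken to come from whole flies. In such bulk RNA, fewer cells of a type and less RNA per cell cannot be told apart. With 1 array per group no difference could be set against the spread between replicates, and no test was made. "Higher" and "lower" therefore compare 1 array with another, and a difference between 2 arrays also holds the differences between the fly pools, RNA preparations and hybridisations.

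OBPs are small secreted proteins, folded around disulfide bonds, that hold hydrophobic molecules in a central pocket. In the antenna, support cells release them into the fluid around the dendrites of olfactory neurons, where odorants and pheromones pass from air to receptor. Other OBPs are made in taste hairs, in the male reproductive tract, in glia or in the fat body, and are not confined to smell. The members were placed in 3 groups by where their products are known to act, namely antenna and related chemosensory organs, taste organs, and seminal fluid, and the rest were kept together as other members.

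Levels are log2 probe set values as deposited, and a member counted as detected where its value reached the median of that array over all probe sets other than array controls (6.42 to 6.46). On the unexposed, benzene and formaldehyde arrays 26 of the 47 members were at or above this median, and on the toluene array 27 were. Among all genes the share was 66.9% on the unexposed, toluene and formaldehyde arrays and 66.8% on the benzene array, against 55.3% to 57.4% of the OBP genes. At or above the upper quartile stood 21 members on the unexposed array, or 44.7%, and 20 on each other array, or 42.6%. The share of all genes there was 33.6% (unexposed), 33.5% (benzene), 33.5% (toluene) and 33.3% (formaldehyde). The family thus held a smaller share of genes above the median than the array as a whole, and a larger share above the upper quartile.

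On at least 1 array 28 members were detected, where 68.9% of all genes were, and 25 of them were detected on all 4 arrays, where 65% were. The 3 that crossed the median were Obp84a, at or above it on the unexposed array alone, Obp56i, on the toluene array alone, and Obp83ef, on every array but the unexposed one. These 3 entered a comparison through the array on which they were high. The other 19 members lay between 3.35 and 6.40 on every array. Nearest to the median from below was Obp56h (6.22, 6.40, 6.19 and 6.30 on the unexposed, benzene, toluene and formaldehyde arrays), a gene of the cluster that also holds seminal members. Nearest from above were Obp56i and Obp84a, described with their groups. Probe sets differ in how brightly they report a transcript, so levels were not compared between genes.

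**Figure D1:**
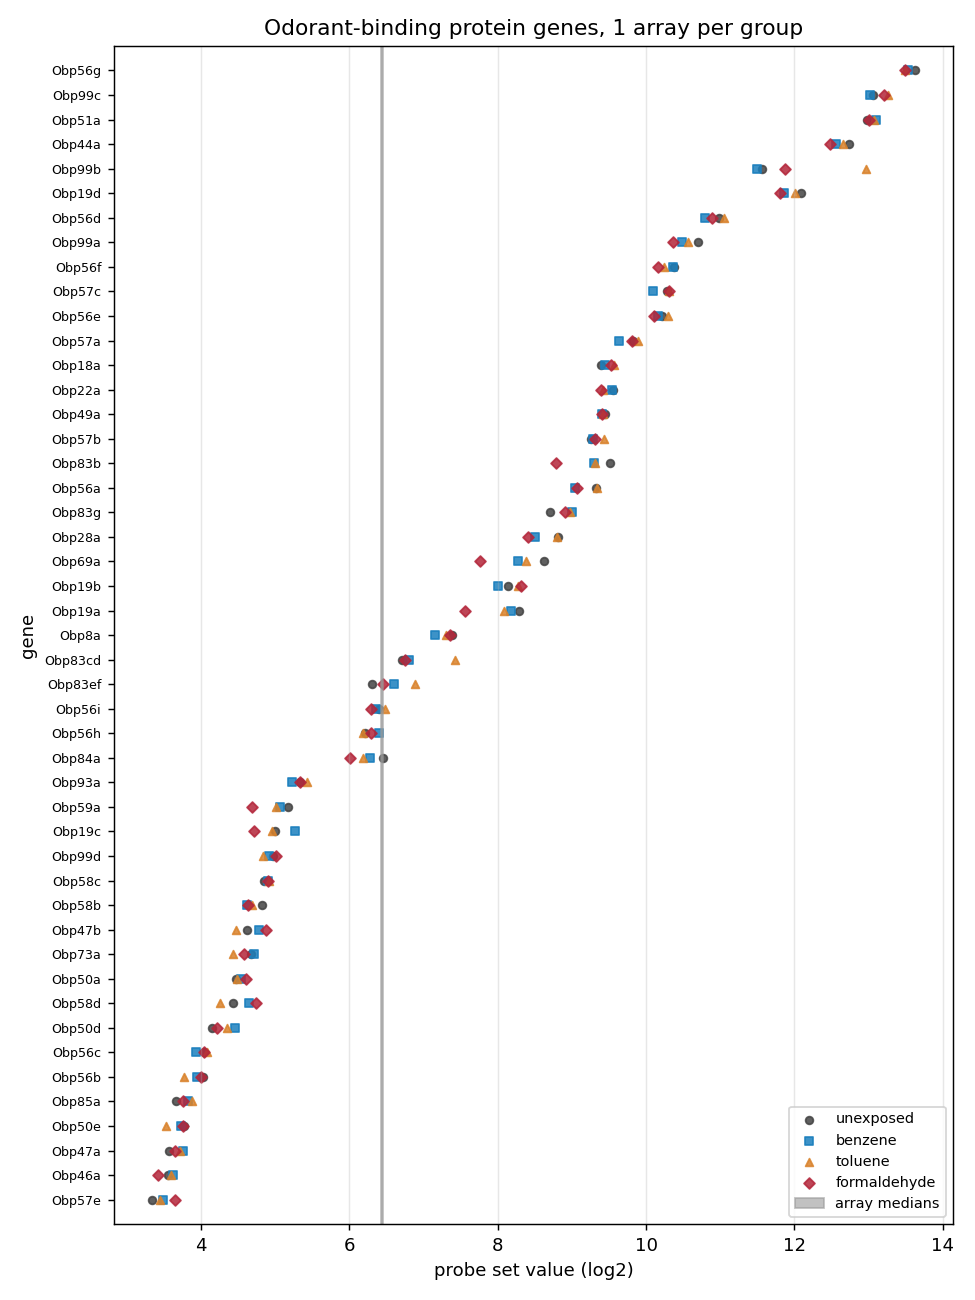
Log2 probe set values (x axis) of the 47 odorant-binding protein genes (y axis, sorted by mean for display) on the unexposed, benzene, toluene and formaldehyde arrays, 1 point per array, with the range of the array medians as a grey band. The points of most genes lie close together, while Obp99b has its toluene point at 12.96 and the other 3 between 11.50 and 11.88.

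Most members differed little between arrays. The range over the 4 arrays had a median of 0.26 log2 units over the 28 detected members, and of 0.21 over 8250 genes detected on at least 1 array. In 6 members the range was at least 0.5 log2 units (6.91% of all genes), and in 1, Obp99b, at least 1 unit, which is 2-fold (1.75% of all genes). The 6 were Obp99b, Obp69a, Obp83b, Obp19a, Obp83cd and Obp83ef. Obp99b, Obp83cd and Obp83ef had their highest value on the toluene array, and the other 3, of the antennal group, had their lowest on the formaldehyde array.

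The antennal group held the lowest ratios to the unexposed array in the family. All 9 members on the array, with no filter on dim values, were lower on the formaldehyde than on the unexposed array, where 51% of all genes were. The 9 were also lower on the benzene array (54.3% of all genes), and 8 of 9 were on the toluene array (50.4% of all genes). Their median log2 ratio to the unexposed array was -0.44 for formaldehyde, -0.22 for benzene and -0.17 for toluene, beside 0.00, -0.02 and 0.00 over all genes. These 3 comparisons share the unexposed array.

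Obp69a, whose product is known from work on how flies respond to the male pheromone, had the lowest ratio to the unexposed array of any member. Its probe set, 1627385_at, stood at 8.63 on the unexposed array, 8.27 on the benzene array, 8.39 on the toluene array and 7.76 on the formaldehyde array. The formaldehyde value was the lowest of the 4, also against benzene (log2 ratio -0.51), and was 1.82-fold below the unexposed value (-0.87). Only 4 of 8165 detected genes had a lower ratio in that comparison.

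Obp83b, also called OS-E, is a protein of the lymph of antennal olfactory hairs. Its probe set, 1638066_at, was at 9.52 (unexposed), 9.30 (benzene), 9.31 (toluene) and 8.79 (formaldehyde). The benzene and toluene values were nearly alike, and the formaldehyde value was 1.66-fold below the unexposed one (log2 ratio -0.73), with 13 detected genes lower.

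Obp19a (1623636_at), another antennal OBP, was at 8.28, 8.18, 8.09 and 7.56 in the same order, which again set the formaldehyde array apart from the other 3. Its log2 ratio to the unexposed array was -0.72 for formaldehyde, with 14 detected genes lower, against -0.10 for benzene and -0.19 for toluene. A second, dimmer probe set of Obp19a (1637454_a_at) gave 7.62, 7.36, 7.44 and 6.95, hence -0.67 for formaldehyde. Both probe sets of the gene therefore gave the same order of formaldehyde below every other array.

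These 3 were the only members at least 0.5 log2 units below the unexposed array in any of the 3 comparisons. Among detected genes 0.808% were so for formaldehyde, 0.393% for benzene and 0.246% for toluene. No member was 2-fold lower in any of the 3, where 0.0367%, 0.0984% and 0.0369% of genes were.

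The remaining antennal members were lower on the formaldehyde array by smaller amounts. Obp28a, an abundant OBP of antennal hairs, was at 8.82, 8.50, 8.81 and 8.41, so that the toluene array matched the unexposed one (log2 ratio -0.01) while benzene (-0.32) and formaldehyde (-0.41) were lower. Obp84a was at 6.46, 6.28, 6.19 and 6.02, with ratios of -0.18, -0.27 and -0.44. Its values sat at and just below the array medians.

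Obp99a, found in antennae and elsewhere, was at 10.70, 10.48, 10.57 and 10.36, with ratios of -0.22, -0.13 and -0.34. Obp19d, a protein of both olfactory and taste hairs, was at 12.09, 11.86, 12.01 and 11.81, with ratios of -0.23, -0.09 and -0.29. Obp56d, made in antennae and taste organs, was the exception on the toluene array, at 10.98, 10.80, 11.05 and 10.88 (ratios -0.18, 0.07 and -0.09). Obp59a, known for a part in sensing humidity, was not detected on any array (5.18, 5.07, 5.01 and 4.69). Its formaldehyde ratio was -0.49 at the brighter probe set and -0.08 at a second one that was dimmer still.

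With all 4 arrays ranked, 7 of the 8 detected antennal members had their lowest value of the 4 on the formaldehyde array, as 31.9% of all genes did. Obp56d, lowest on the benzene array (26.2% of all genes), was the other. The highest value lay on the unexposed array for 7 of the 8 (32.9% of all genes), and for Obp56d on the toluene array (22.3%). Below the unexposed array on every exposed array were 7 of the 8, as 32.9% of all genes were. Obp84a, which passed the filter on the unexposed array alone, is among the 7 in each count.

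**Figure D2:**
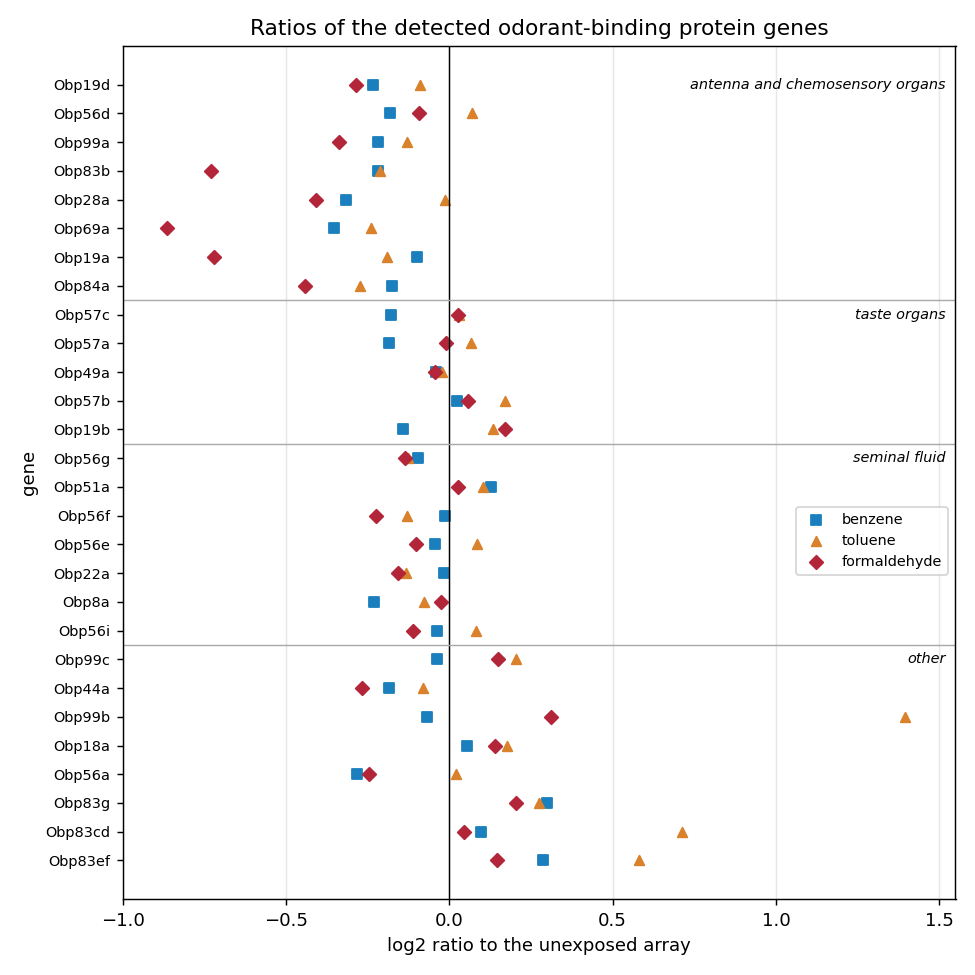
Log2 ratio to the unexposed array (x axis) of the 28 detected odorant-binding protein genes (y axis), grouped by where their products are known to act, with 1 point for each exposed array. Antennal members lie left of 0 on the formaldehyde array, from -0.09 to -0.87, and Obp99b has its toluene point at 1.40.

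Other genes of the antenna were looked at beside these members. A list of 33 genes of olfactory receptors, cofactors and antennal proteins had 31 on the array, of which 6 were detected. All 6 were lower on the formaldehyde array (47.7% of all detected genes) and on the benzene array (57.1%) than on the unexposed one, with medians of -0.50 and -0.27, and 5 of 6 were on the toluene array (48.4%), with a median of -0.16. One of the 6, Snmp2, passed the filter on the unexposed array alone, which fixed its lower values elsewhere. Summed on the linear scale over the 31 genes, the list's level was 2139 on the unexposed, 1883 on the benzene, 1939 on the toluene and 1641 on the formaldehyde array.

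The 3 genes of that list with the widest range were a5, lush and Jhedup. The OBP gene lush, which falls outside the symbol rule and whose product is needed for the response to the male pheromone, was at 7.21, 6.81, 7.10 and 6.46 (formaldehyde ratio -0.75). The antennal protein gene a5 was at 8.01, 7.34, 7.56 and 7.23 (-0.77), and the antennal esterase gene Jhedup at 7.61, 7.21, 7.40 and 7.08 (-0.53). The small antennal protein gene a10 was at 9.49, 9.35, 9.34 and 9.01 (-0.48). Each of these 4 was lowest on the formaldehyde array and highest on the unexposed one. The other 2 detected genes, Snmp1 and Snmp2, named as sensory neuron membrane proteins, varied less. Snmp1 was highest on the toluene array (6.96, 6.96, 7.06 and 6.89; formaldehyde ratio -0.08), and Snmp2 was at 6.50, 6.38, 6.32 and 6.30 (-0.19).

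No olfactory receptor gene of the list was detected. The 25 undetected genes stayed at or below 5.68 on every array, and that highest value was of the co-receptor gene Orco on the unexposed array (5.68, 5.47, 5.49 and 5.29). The part of antennal RNA content in the lower OBP values was not tested.

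Genes of the testis were also lower on each exposed array. All 15 of a testis list were below 0 for benzene (57.1% of all detected genes), toluene (48.4%) and formaldehyde (47.7%), with medians of -0.23, -0.15 and -0.31, and summed levels of 67925 (unexposed), 58799 (benzene), 61870 (toluene) and 55475 (formaldehyde). Mst98Cb and betaTub85D, of the sperm tail and its microtubules, were at -0.39 and -0.38 for formaldehyde, while fzo, for a mitochondrial fusion protein of spermatids, was lowest on the benzene array (-0.70, with -0.50 for toluene and -0.37 for formaldehyde). The formaldehyde ratios of Obp69a, Obp83b, Obp19a, Obp84a and Obp28a lay below that of every gene of the testis list (lowest -0.39), and those of Obp99a, Obp19d and Obp56d lay within or above the testis range. Whether the lower antennal values share a source with these was not tested.

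**Figure D3:**
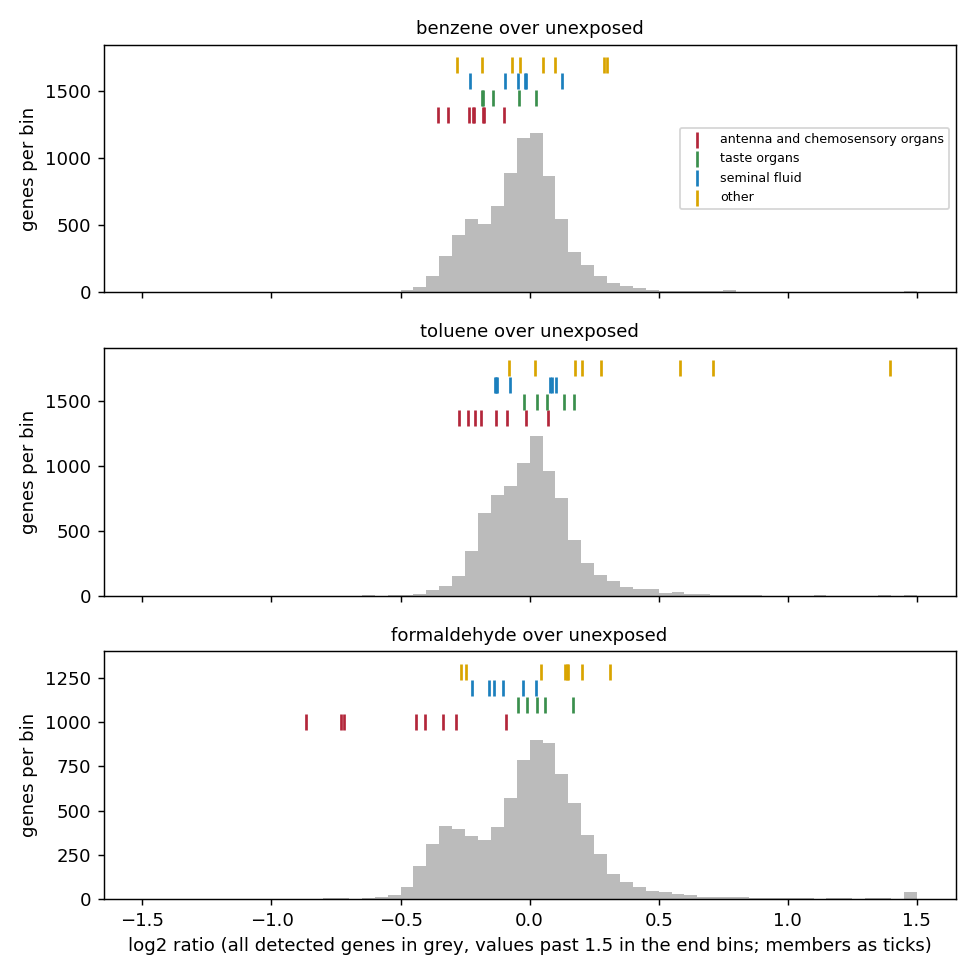
Histograms of log2 ratios of all detected genes (grey, genes per bin on the y axis) for each exposed array over the unexposed one, with members drawn as ticks above, 1 row for each group. On the formaldehyde array 3 antennal members lie left of nearly all genes, whose 1st percentile was -0.48, and the grey distribution has a second, lower mode on the left.

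Taste members differed less. Obp49a, whose product acts in taste hairs where bitter compounds suppress the response to sweet ones, was the steadiest member of all, at 9.45, 9.41, 9.43 and 9.40. Its range of 0.04 log2 units was exceeded by all but 2.41% of detected genes. The 3 neighbouring genes Obp57a, Obp57b and Obp57c of the leg and mouthpart cluster had ranges of 0.25, 0.17 and 0.21.

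Obp57a was at 9.82, 9.64, 9.89 and 9.82, Obp57b at 9.26, 9.28, 9.43 and 9.32, and Obp57c at 10.28, 10.10, 10.31 and 10.31. The toluene array held the highest value of Obp57a and Obp57b, and the toluene and formaldehyde arrays were alike for Obp57c. Obp19b was at 8.14, 8.002, 8.28 and 8.31, and Obp57e was not detected. Of the 5 detected taste members 4 were below 0 for benzene (57.1% of all detected genes), 1 for toluene (48.4%) and 2 for formaldehyde (47.7%). Under quantile scaling the sign of Obp49a turned for benzene and that of Obp57a for formaldehyde.

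Seminal fluid members were also close to the unexposed array. Obp56g, whose product is needed to form the mating plug, was at 13.62, 13.52, 13.49 and 13.48, a range of 0.14. Obp51a was at 12.98, 13.10, 13.08 and 13.00, and Obp22a at 9.55, 9.54, 9.42 and 9.40. None of these 3 seminal proteins differed by more than 0.16 between any 2 arrays.

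Obp56e was at 10.21, 10.17, 10.30 and 10.11, and its neighbour Obp56f at 10.38, 10.36, 10.25 and 10.16. Obp8a was at 7.39, 7.15, 7.31 and 7.36, lowest on the benzene array, and Obp56i at 6.40, 6.36, 6.48 and 6.29. Over all 7, with no filter on dim values, the median log2 ratios were -0.04 (benzene), -0.08 (toluene) and -0.11 (formaldehyde). Of the 7, 5 were lowest on the formaldehyde array, as 31.9% of all genes were. Obp56i, which passed the filter on the toluene array alone, is among the 5. Small negative ratios of Obp22a and Obp56f for benzene turned positive under another scaling.

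Other genes of the male reproductive tract moved by similar amounts. Of 26 seminal fluid and ejaculatory bulb genes on the array from a list of 32, all were detected, and their medians were -0.07, -0.11 and -0.18 for benzene, toluene and formaldehyde. Below 0 were 24, 23 and 23 of them, beside 57.1%, 48.4% and 47.7% of all detected genes. The widest ranges were those of Acp53C14c, Sems and CG9997, with formaldehyde ratios of -0.37, -0.31 and -0.31. Summed levels were 145174 (unexposed), 138921 (benzene), 136070 (toluene) and 129032 (formaldehyde). Of the yolk genes, which mark females, Yp1 (3.43 to 3.74) and Yp2 (4.13 to 4.32) were not detected, and Yp3 was at 7.11 to 7.21.

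Obp99b was the one member at least 2-fold away from the unexposed array. It is known also as a male-biased gene of the fat tissue of the head. Its probe set, 1623675_at, was at 11.57 (unexposed), 11.50 (benzene), 12.96 (toluene) and 11.88 (formaldehyde). The toluene value stood alone, 2.63-fold above the unexposed value (log2 ratio 1.40), and the other 3 lay within 0.38 log2 units of each other. Of 8140 detected genes 8 had a higher toluene ratio, and 0.246% were at least 2-fold higher. For benzene and formaldehyde 0 members were 2-fold higher, as against 0.332% and 1.08% of detected genes.

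Genes of the fat body were higher on the toluene array too. Of a list of 12, 7 were on the array and all 7 were detected. All 7 were above 0 for toluene (51.5% of all detected genes), with a median of 1.36 and 4 at least 2-fold higher. The list did not move as 1: FASN1 (0.05) and apolpp (0.24) stayed close to the unexposed array, while tobi (0.74) and Lsp2 (1.63) were higher. For formaldehyde the median was 0.35, with 3 at least 2-fold higher, and for benzene 0.07, with 1. Summed levels were 19069 (unexposed), 19505 (benzene), 29053 (toluene) and 23429 (formaldehyde).

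The widest ranges of that list were those of Fbp2 and Fbp1, which encode fat body proteins, and fit, a gene of fat tissue that answers feeding. For fit the values were 7.66, 7.66, 9.03 and 7.32, so that its toluene value alone stood out, as for Obp99b. Fbp1 was at 7.77, 8.76, 10.90 and 10.26 and Fbp2 at 7.75, 8.78, 10.95 and 10.17, both high with formaldehyde as well. Obp99b had its second-highest value on the formaldehyde array (ratio 0.31) and was at -0.07 for benzene. The part of fat body RNA content in the Obp99b value was not tested.

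The paired-domain members Obp83cd and Obp83ef and their neighbour Obp83g lie next to each other on chromosome arm 3R. All 3 were above the unexposed array on each exposed array, as 29.4% of all genes were. Obp83ef passed the filter on the exposed arrays alone, which favoured ratios above 0, so its direction adds nothing to that count. Obp83cd was at 6.71, 6.81, 7.42 and 6.76, highest on the toluene array with a log2 ratio of 0.71 (45 detected genes higher). Obp83ef was at 6.31, 6.60, 6.89 and 6.46, with 0.58 for toluene (84 genes higher) and 0.29 for benzene. Obp83g, at 8.70, 9.002, 8.98 and 8.91, had its highest value on the benzene array instead, with ratios of 0.30, 0.27 and 0.20. The toluene value thus stood apart in the first 2 of these neighbours and not in the third.

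With Obp99b, Obp83cd and Obp83ef made 3 members at least 0.5 log2 units above the unexposed array for toluene, where 1.57% of detected genes were. Obp83ef is again among them through the exposed arrays alone. For benzene and formaldehyde 0 members were, where 1.33% and 3.2% of genes were. Obp83cd and Obp83ef were under the upper quartile of their arrays, and with the filter on dim values raised to that level only Obp99b was left of the 3.

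**Figure D4:**
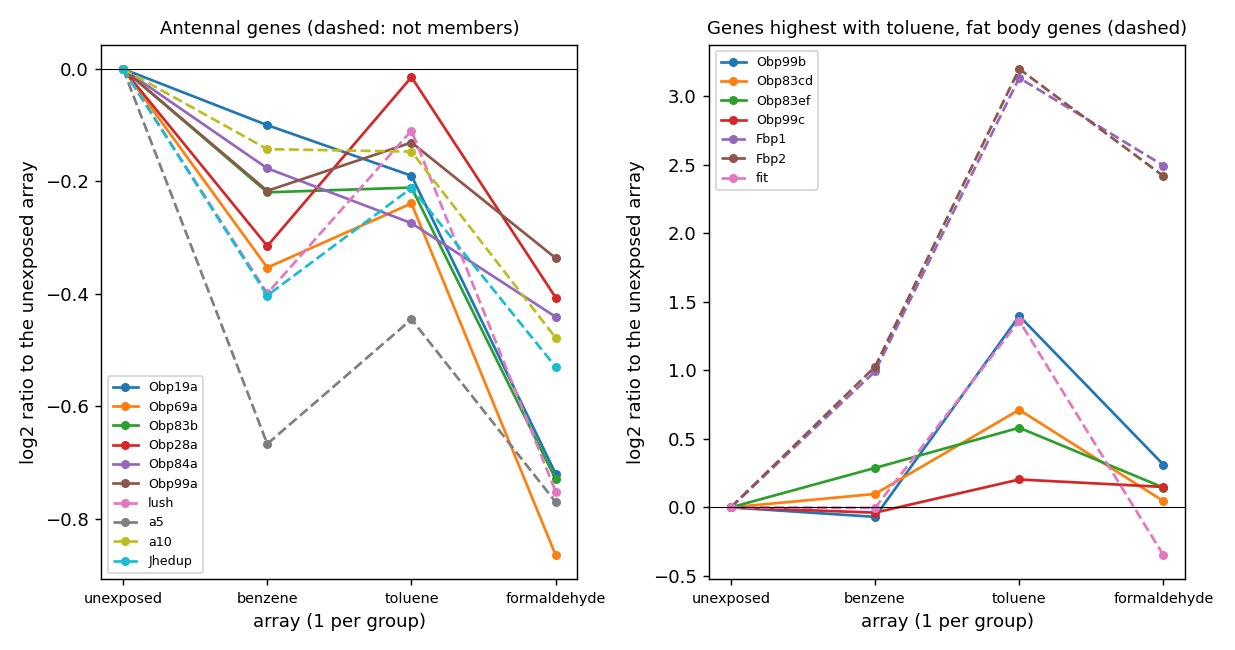
Log2 ratio to the unexposed array (y axis) on each array (x axis, 1 array per group), where lines only join points of a gene. Drawn on the left are 6 antennal members with lush, a5, a10 and Jhedup. Drawn on the right are 4 of the 12 detected members highest with toluene, and 3 of the 7 detected fat body genes. The fat body genes Lsp2, tobi, apolpp and FASN1 (toluene ratios 1.63, 0.74, 0.24 and 0.05) are not drawn. On the left, the detected antennal members Obp19d and Obp56d and the detected genes Snmp1 and Snmp2 are not drawn. Obp19d was also lowest on the formaldehyde array (-0.29), while Obp56d was lowest on the benzene array (formaldehyde ratio -0.09). Every gene plotted there is lowest on the formaldehyde array, at -0.34 to -0.87. On the right Obp99b (1.40) and fit (1.36) lie close together on the toluene array, below Fbp1 (3.13) and Fbp2 (3.20). Obp99b and fit stand at 0.31 and -0.35 on the formaldehyde array.

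The other detected members had ranges of at most 0.30. Obp99c, on arm 3R as Obp99b is, was at 13.05, 13.01, 13.26 and 13.20, slightly above the unexposed array for toluene (0.20) and formaldehyde (0.15). Obp99d, also on 3R, was not detected (4.85 to 5.02). Obp44a, a protein of glia, was at 12.74, 12.55, 12.66 and 12.47, lower on each exposed array and lowest with formaldehyde (-0.27). Obp18a was at 9.39, 9.45, 9.57 and 9.53, and Obp56a at 9.32, 9.04, 9.34 and 9.08, with benzene (-0.28) and formaldehyde (-0.25) below the other arrays. The highest value lay on the toluene array for 6 of the 8 detected members outside the antennal, taste and seminal groups, as it did for 22.3% of all genes. Obp83ef, which passed the filter on the exposed arrays alone, is among the 6. The undetected members outside those groups were not counted there.

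Genes that lie next to each other did not share 1 pattern. In the cluster of Obp19a, Obp19b, Obp19c and Obp19d on the X chromosome, the formaldehyde ratios of the 3 detected genes ran from -0.72 for Obp19a to 0.17 for its next neighbour Obp19b. In the run from Obp56a to Obp56f on arm 2R, 4 of 6 genes were detected, with formaldehyde ratios from -0.25 to -0.09. The Obp57 genes ran from -0.01 to 0.06, and in the runs of Obp50 and Obp58 genes 0 members were detected. By chromosome arm, 12 of 26 members were detected on 2R, 8 of 11 on 3R, 5 of 6 on X, 2 of 2 on 2L and 1 of 2 on 3L. Among all genes, whatever their arm, 68.9% were detected on at least 1 array. The share of all genes was not counted by arm, so the arms are not compared.

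Of the 19 undetected members, 1 had a range of at least 0.5 log2 units. Among genes detected on at least 1 array 6.91% had such a range, and the share among undetected genes was not counted. Obp19c was at 4.997, 5.27, 4.97 and 4.71, and a second probe set of it, at 3.42, 3.36, 3.12 and 3.36, did not follow that order. The median range of the 19 was 0.21. Besides Obp19c, Obp56h and Obp59a they were Obp46a, Obp47a, Obp47b, Obp50a, Obp50d, Obp50e, Obp56b, Obp56c, Obp57e, Obp58b, Obp58c, Obp58d, Obp73a, Obp85a, Obp93a and Obp99d. Probe sets shared by Obp50b and Obp50c stood at 8.22, 8.10, 8.05 and 7.98 and at 6.78, 6.47, 6.61 and 6.31, lowest with formaldehyde at both, and the genes cannot be told apart there. A probe set shared by Obp57d and the cuticle gene Cpr57A was steady at 8.28, 8.29, 8.33 and 8.30. Another that they share was dim, at 3.56, 3.63, 3.57 and 3.77.

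Over the whole family the ratios lay close to 0 in the middle. For benzene 21 of 27 detected members were below 0 (57.1% of all detected genes) and the median was -0.10. For toluene 13 of 28 were (48.4%), with a median of 0.03, and for formaldehyde 17 of 27 (47.7%), with a median of -0.09. With every one of the 47 members counted, the 3 numbers were 29, 23 and 25, beside 54.3%, 50.4% and 51% of all genes without the filter, and the medians were -0.04, 0.00 and -0.02. The spread of ratios was wider on the formaldehyde array for all genes as well, with a robust SD of 0.21 against 0.15 for benzene and for toluene.

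Toluene and benzene were exposures of the same 24 h at doses not stated, so the values are set side by side without a claim about the compounds. Obp99b was 2.76-fold higher on the toluene array (12.96 against 11.50), and 6 of 8126 detected genes had a higher ratio (0.246% were at least 2-fold higher). Obp83cd was higher by 0.61 log2 units (7.42 against 6.81), where 1.11% of genes were at least 0.5 higher. Of 27 detected members 21 were higher with toluene, as 65.6% of all detected genes were, and the median was 0.13 against 0.04. Obp56i, 1 of the 21, passed the filter on the toluene array alone, which fixed its direction. With no filter 26 of 47 members were higher, beside 7055 of 11982 genes, with medians of 0.018 and 0.027. The larger share among members was therefore seen with the filter alone. No member was 0.5 log2 units lower, where 0.628% of genes were, or 2-fold lower (0.197%). No interval for any of these differences can be given from 1 array each.

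The formaldehyde array was set against the benzene and toluene arrays as well, which leaves the unexposed array out. Against benzene, Obp19a (-0.62), Obp69a (-0.51) and Obp83b (-0.51) were at least 0.5 log2 units lower, where 0.748% of genes were, and 0 members were 0.5 higher (2.33% of genes). None was 2-fold away, where 0.822% of genes were 2-fold higher and 0.184% lower. Against toluene, Obp99b was 2.12-fold lower (11.88 against 12.96; 0.0614% of genes were 2-fold lower). Obp83cd (-0.67), Obp69a (-0.63), Obp19a (-0.53) and Obp83b (-0.52) were at least 0.5 lower in that comparison, where 0.909% of genes were, and 0 members were 0.5 higher (1.93%) or 2-fold higher (0.798%). At the probe sets that stood for them, Obp69a, Obp83b and Obp19a were therefore at least 0.5 log2 units lower on the formaldehyde array than on each of the other 3. The second, dimmer probe set of Obp19a fell short of that size against benzene (-0.41) and toluene (-0.49). All comparisons of the formaldehyde array with the other 3 share that 1 array, so they are not independent of each other.

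Against the toluene array 25 of 27 detected members were lower on the formaldehyde array, as 55.6% of all detected genes were, with a median of -0.16 against -0.02. Only Obp8a (0.05) and Obp19b (0.04) of the detected members were above 0. Obp56i is among the 25 through the toluene array alone, which fixed its direction. With no filter 36 of 47 members were lower, beside 6609 of 11982 genes, with medians of -0.08 and -0.02. Against the benzene array 16 of 26 were lower (45.3% of all detected genes), with a median of -0.05 against 0.02.

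Genes of the CheA and CheB proteins, another secreted family of taste hairs linked to pheromones, were set beside the OBP genes. Of 12 of these genes on the array from a list of 20, 6 were detected, and all 6 were above 0 for formaldehyde, from 0.07 to 0.27 (52.3% of all detected genes were). The toluene array was much the same: the median was 0.14 for toluene and 0.13 for formaldehyde, and 0.02 for benzene. Below 0 were 1 of the 6 for toluene (48.4% of all detected genes) and 2 for benzene (57.1%). CheA7a, CheA87a and CheB42b had the widest ranges, with formaldehyde ratios of 0.27, 0.26 and 0.12.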

How the data were processed

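Expression was measured on Affymetrix arrays in 4 samples, 1 per group, and groups were taken from the sample titles. Total RNA (300 ng) was amplified and labelled with biotin using a kit that primes at 3' ends, per the labels' protocols. The deposited table holds log2 values of 18952 probe sets, 183 of them array controls. Affymetrix Expression Console 1.1, RMA and MAS5 appear in the submitters' processing notes without roles, so the method behind the values is not given in the sources used here; RMA would compress ratios of dim probe sets and remove overall differences between arrays. Values ran from 2.43 to 14.5 and were used as deposited. Array medians ran from 6.42 to 6.46; the number of arrays, 1 per group, limits the precision of every value.

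Names came from the platform annotation: 13647 probe sets had 1 symbol, 402 several and 4720 none. RefSeq's Release 6 table gave names and neighbours alone, as the files name no build. Genes entered a comparison of 2 arrays if the larger value was at or above the median of its array. Ratios are differences of log2 values; sizes of 0.5 and 1 log2 units were counted. Named were the members detected on at least 1 array, and undetected ones with a range of at least 0.5 log2 units or nearest the median. The 3 detected members of each companion list with the widest range were named too. The genes a10, Orco and the yolk genes came from a list of markers. Snmp1, Snmp2, FASN1, apolpp, tobi, Lsp2, the other undetected members and second and shared probe sets were named for completeness, after their values were seen. The members and lists were chosen with earlier results of these data known. Calculations used Python 3.11.15 and pandas 2.3.3, and the counting was tested on simulated data. Alternatives were other dim filters, quantile scaling, median centring and the mean of a gene's probe sets.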

Additional observations from a re-analysis of the deposited data

How the results depend on the processing

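The alternatives run were 2 other filters on dim values, quantile scaling, median centring and the mean of a gene's probe sets. Against the unexposed array, Obp69a, Obp83b and Obp19a for formaldehyde and Obp99b for toluene kept their direction under both scalings. Obp19a also kept it with the mean of its 2 probe sets. The other alternatives could not change these directions. A filter leaves the ratio of a single gene as it is, and Obp69a, Obp83b and Obp99b have 1 probe set each. Obp19a did not reach the filter raised to the 75th percentile on any array. No antennal count of genes below 0 against the unexposed array moved by over 1.5 times. Raising the filter to the 75th percentile left fewer members tested: 1 at least 0.5 log2 units higher for toluene over unexposed, 1 for toluene over benzene, 1 that much lower for formaldehyde over benzene, 2 for formaldehyde over toluene, and 3 with a range of at least 0.5. The antennal median for formaldehyde over toluene became -0.21. With no filter, and so with more members tested, those below 0 numbered 23 for toluene over unexposed, 21 for toluene over benzene and 27 for formaldehyde over benzene. These were out of 47 members, and of 11982 genes 6034, 4925 and 5949 were below 0 in the same comparisons. The family's median for toluene over benzene became 0.018, beside 0.027 over all genes, and the antennal median for formaldehyde over benzene -0.26. Antennal members below 0 for toluene over benzene numbered 1 with the filter at the array median, 0 with the raised filter, 3 with none and 2 under quantile scaling and under median centring. Of 282 ratios of single members, 20 changed sign under another scaling, the largest of them 0.06 in size. No paired analysis was possible because each group has 1 array. No replicate could be left out for the same reason, and dim members cannot show ratios that the deposited values compress.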
